A study of Mus musculus with 24 samples.

Results

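The genes described here are 34 genes of fat-cell identity and lipid storage, listed by name for what they are known to do in fat cells. The list was chosen with earlier results of these data known. They are 34 of the 56422 gene names measured in 24 mouse samples labelled as metastases of the peritoneum, the membrane that lines the abdomen. Abundance was read as TPM, the share of a library's transcripts after scaling for transcript length, after adding up the transcripts of 1 gene name. A gene was tested where at least 6 libraries held at least 1 TPM, which 33 of the 34 genes and 15163 genes in all did. The gene below that filter was Ucp1, the heat-producing uncoupling protein of brown fat.

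The samples formed an untreated control group, a propionate group, a butyrate group and a group given both acids, called the combination, with 6 libraries each. Both acids are short-chain products of bacterial fermentation of fibre in the gut, and the series belongs to a study of mannose, gut microbial metabolites and antibody therapy against PD-1, an inhibitory receptor of T cells, in ovarian cancer. Dose, duration, tumour line, mouse strain, age and sex, and whether PD-1 was blocked in any group, are not stated in the labels. Nor do the labels say that replicates came from separate animals, and the p-values therefore reflect spread among the libraries at hand, part of which may be technical.

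White fat cells store triglyceride in a single large droplet and release it as fatty acids between meals. Their identity is held by the nuclear receptor PPARγ together with C/EBPα, which switch on droplet coat proteins, fatty acid carriers, the enzymes that build and break triglyceride, and hormones such as adiponectin and leptin. Fat of the omentum and mesentery lies next to the peritoneum, and ovarian cancer commonly spreads to it.

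Libraries differed in the tissue markers they held. They contained 12618 to 15418 genes at 1 TPM or more, and TPM keeps no sequencing depth, so no counting interval can be given. The 6 adipocyte markers Adipoq, Plin1, Cidec, Lep, Retn and Cfd were all above 0 in each of the 24 libraries, and their summed level spanned 443 to 2149 TPM in the control, propionate and butyrate groups and 611 to 11533 TPM in the combination group. The 16 skeletal muscle markers summed to 26806 to 142752 TPM in 23 libraries and to 64.4 TPM in combination replicate 5, where the muscle creatine kinase Ckm stood at 0.78 TPM and 8 of the 16 were at 1 TPM or more. Markers of T cells summed to 878 TPM in that library and to at most 70.9 TPM in the other combination libraries and 57.9 TPM in the other groups. The 12 mesothelial markers summed to medians of 977 TPM in controls, 71.4 with propionate, 145 with butyrate and 171 in the 5 combination libraries other than replicate 5, with overlapping ranges. Among controls, replicate 3 stood at 17.6 TPM and the others at 649 to 1670 TPM. With propionate, replicates 3 and 4 stood at 1377 and 988 TPM and the others at 30.2 to 99.1 TPM. Combination replicates 3 and 4 stood at 934 and 923 TPM, and replicates 1, 2 and 6 at 26.5, 171 and 56.4 TPM. In combination replicate 5 that sum was 681 TPM, of which the keratins Krt19, Krt18 and Krt8 made up 346, 191 and 123 TPM, while the mesothelial genes Msln, Upk3b and Wt1 stood at 0.49, 0.04 and 0 TPM. The 12 epithelial and ovarian carcinoma markers, which share Krt8 and Krt18, summed to 592 TPM in that library, 14.9 to 373 TPM in the other combination libraries and 10.97 to 661 TPM in controls. The 7 markers of mammary epithelium summed to 122 TPM in combination replicate 5, 45.4 TPM in combination replicate 2 and at most 3.68 TPM in the other 22 libraries. The part of these tissue differences in the levels given here was not tested, and the main results of the combination group are given with and without replicate 5.

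**Figure D1:**
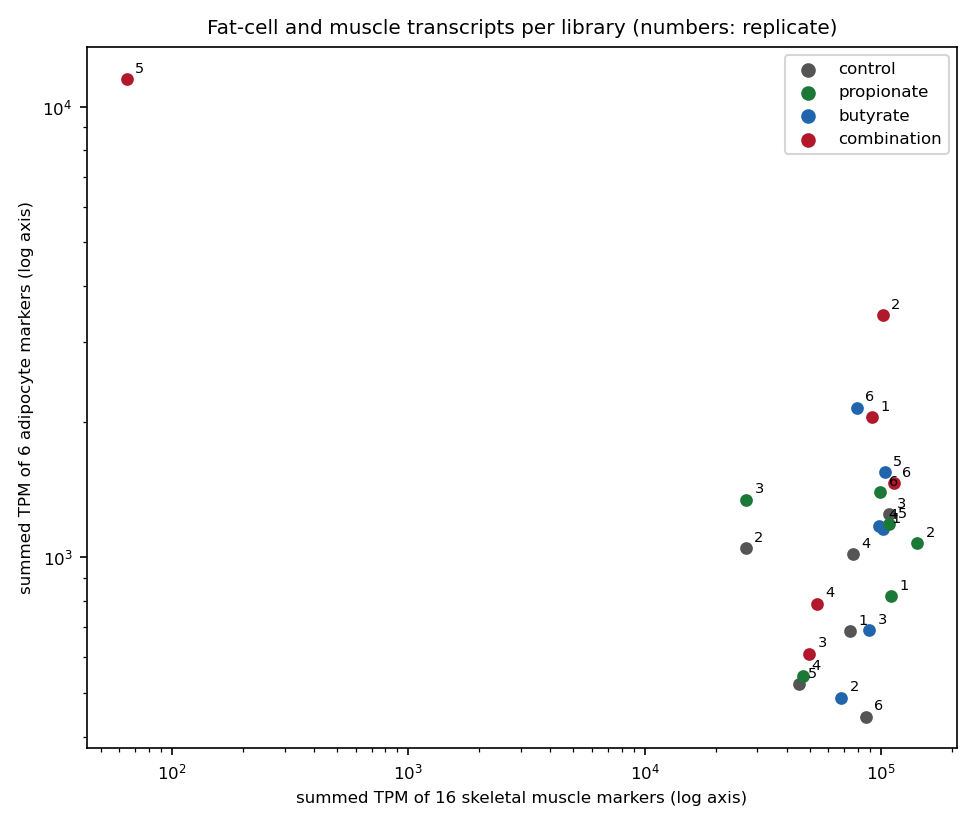
Summed TPM of 6 adipocyte markers (vertical, log axis) against summed TPM of 16 skeletal muscle markers (horizontal, log axis), 1 point per library, coloured by group and numbered by replicate. Combination replicate 5 lies alone at 64.4 TPM of muscle and 11533 TPM of adipocyte markers, and combination replicate 2 is the next highest for adipocyte markers at 3452 TPM.

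The 34 genes together took 0.409 to 1.09% of the TPM in the control, propionate and butyrate libraries. In the combination group this share was 0.488 to 1.88% in 5 libraries and 3.19% in replicate 5. Combination replicate 5 held the highest level of 32 of the 34 genes, and combination replicate 2 the second highest level of 29. The 2 genes that peaked elsewhere were Slc2a4, the insulin-responsive glucose transporter of fat and muscle, and Car3, a carbonic anhydrase abundant in fat and muscle. Fewer fat cells and less RNA per fat cell cannot be told apart in bulk samples, and this holds for every level given here.

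**Figure D2:**
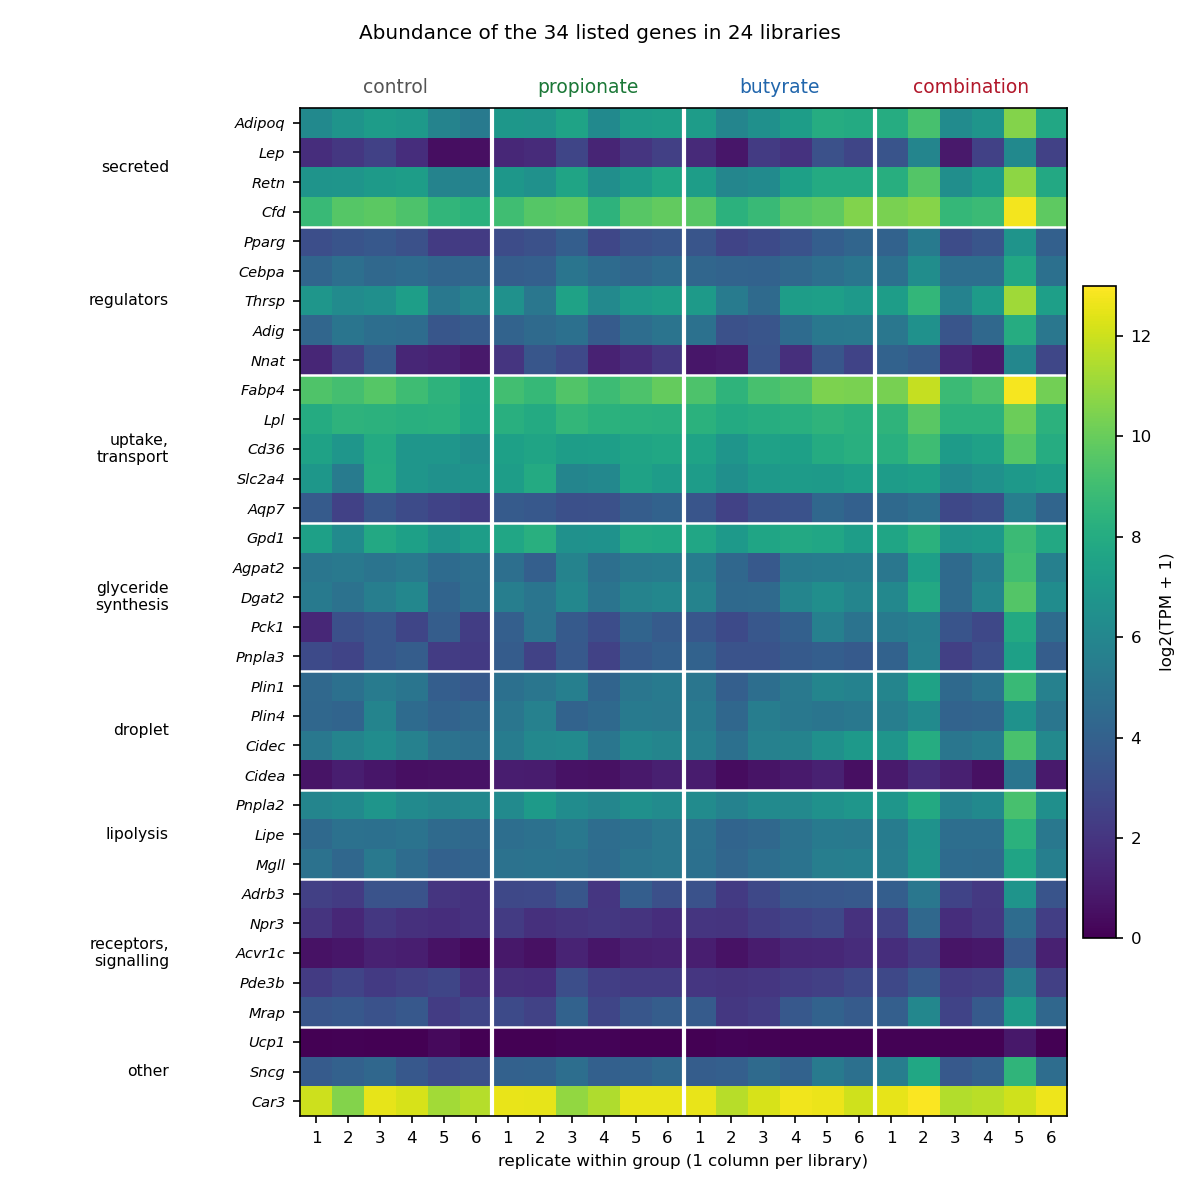
Level of the 34 genes as log2(TPM + 1), 1 row per gene grouped by role and 1 column per library, on 1 colour scale. The column of combination replicate 5 is the brightest for 32 genes and that of combination replicate 2 follows, while Car3, at the bottom, is bright in all groups.

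Across libraries most of the genes varied together with Adipoq, which encodes adiponectin, a hormone made by fat cells. Over 24 libraries 30 of 32 genes passed the permutation test for Pearson's r with Adipoq on log2(TPM + 1) (adjusted over 65 relations), with a median r of 0.92, and 32 of 32 passed it for Spearman's rho. The closest was Plin1, the perilipin that coats the fat droplet, at r = 0.99 and Spearman's rho = 0.99 (permutation p = 1e-05 for both, the smallest that 100000 resamples give, adjusted p = 2.5e-05 and 2.83e-05). Because 2 combination libraries stood far from the rest, r was taken again over the 22 libraries without combination replicates 2 and 5, the 2 farthest from the median of Adipoq. The median r was then 0.80 and 17 genes exceeded 0.8, against a median of -0.44 and 0.39% over 0.8 among the 15130 other genes tested. These points share the fixed total of TPM, so the values describe the libraries. Within the groups of 6 the sign was positive in all 4 groups for 31 of 32 genes, the exception being Npr3, the clearance receptor for natriuretic peptides, at r = -0.47 within the propionate group.

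Over the 24 libraries the lowest Pearson r with Adipoq belonged to Slc2a4 (r = 0.33, permutation p = 0.117, adjusted p = 0.168; rho = 0.52, permutation p = 0.0103, adjusted p = 0.0172) and Car3 (r = 0.42, permutation p = 0.0396, adjusted p = 0.0659; rho = 0.60, permutation p = 0.0026, adjusted p = 0.00512). Without combination replicates 2 and 5, r was 0.39 for Slc2a4 and 0.51 for Car3, and Cidea (0.40), Gpd1 (0.42), Pde3b (0.44) and Npr3 (0.45) lay between them. By rho over the 24 libraries the lowest was Cidea at 0.49. Both genes are also expressed in skeletal muscle, so each member was set against Ckm over the 23 libraries other than combination replicate 5, a comparison chosen after the levels were seen. In that comparison Gpd1 reached r = 0.93 (rho 0.93), Car3 0.93 (rho 0.84) and Slc2a4 0.92 (rho 0.88), each at permutation p = 1e-05 and adjusted p = 2.5e-05 for r. Plin4 reached 0.77 (rho 0.80, permutation p = 3e-05, adjusted p = 6.29e-05) and Aqp7 0.56 (rho 0.61, permutation p = 0.00587, adjusted p = 0.0109), which made 5 of 33 genes passing by r. By rho 12 of 33 passed, the others being Cd36, Pck1, Pnpla3, Pnpla2, Mgll and Adrb3, with rho of 0.47 to 0.60, and Pde3b at -0.47. Without control replicate 2 and propionate replicate 3, the 2 libraries farthest from the median of Ckm, r was 0.94 for Gpd1, 0.88 for Car3, 0.86 for Slc2a4, 0.79 for Plin4 and 0.52 for Aqp7. For Adipoq itself r with Ckm was 0.29 (permutation p = 0.183, adjusted p = 0.248) and rho 0.43 (permutation p = 0.0431, adjusted p = 0.0584), and r was 0.48 without those 2 libraries.

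**Figure D3:**
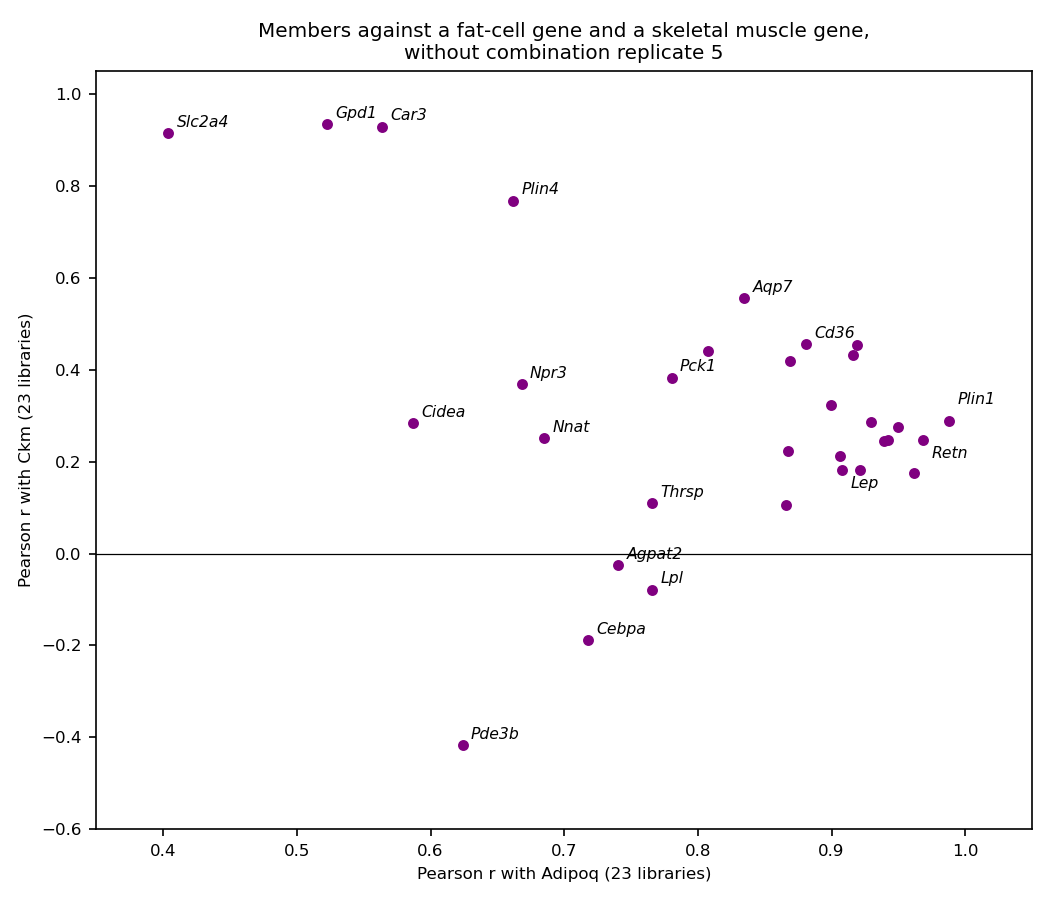
Pearson r of each gene with Adipoq (horizontal) and with Ckm (vertical) over the 23 libraries without combination replicate 5, on log2(TPM + 1). Slc2a4, Gpd1, Car3 and Plin4 sit at the upper left with r over 0.7 against Ckm, and Plin1 and Retn sit at the far right with r of 0.29 and 0.25 against Ckm.

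C/EBPα and its relatives recognise the core motif TTGCNNAA, and promoter sequences of members that hold it are shown. They were chosen by the motif and not by their r with Adipoq. Of the 34 genes, 24 had RefSeq promoter windows that were used (build GRCm38.p6, while the submitters' processing notes name mm39), 31 windows in all. Member windows on the chromosome of Cidea were left out of these counts, while the windows of all genes kept that chromosome. The 250 bases before the start held the motif, on either strand, in 4 windows of 4 genes, which is 12.9% against 9.57% of all 32536 windows. The nuclear receptor letters AGGTCA lay in 7 windows of 5 genes, 22.6% against 14.0%. The windows of Aqp7 overlap, and the same AGGTCA match was counted in both. The PPAR repeat AGGNCANAGGNCA, which can contain those letters, lay in 0% against 0.341%. The promoter letters TATAAA lay in 6.45% against 12.3% and CCAAT in 25.8% against 33.8%, each on either strand. These are matches of letters and were not tested for binding. The stretches with the C/EBP core are printed 5′ to 3′ along the gene's strand, with the motif in capitals. Of each window only the longest stretch free of annotated exon bases is shown. For Plin1 that left 123 of 250 bases. Another Plin1 core, TTGCCCAA at 58 bases before the start, lay in the part left out. Lep lies at chr6:29059971-29060219 (plus strand), Pparg at chr6:115421816-115422065 (plus strand), Plin1 at chr7:79732904-79733026 (minus strand) and Cidec at chr6:113434765-113435014 (minus strand).
Lep: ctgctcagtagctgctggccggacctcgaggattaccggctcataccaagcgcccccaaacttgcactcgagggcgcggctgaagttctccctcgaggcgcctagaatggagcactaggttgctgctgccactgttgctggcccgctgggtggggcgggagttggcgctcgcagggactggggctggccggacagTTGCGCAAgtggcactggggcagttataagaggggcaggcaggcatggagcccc
Pparg: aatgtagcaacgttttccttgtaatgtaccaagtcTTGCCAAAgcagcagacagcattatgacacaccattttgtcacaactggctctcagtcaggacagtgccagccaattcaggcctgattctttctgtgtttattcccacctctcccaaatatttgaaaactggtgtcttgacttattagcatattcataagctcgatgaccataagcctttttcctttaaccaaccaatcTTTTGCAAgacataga
Plin1: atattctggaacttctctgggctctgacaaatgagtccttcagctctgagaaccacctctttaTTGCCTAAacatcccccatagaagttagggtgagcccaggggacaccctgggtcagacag
Cidec: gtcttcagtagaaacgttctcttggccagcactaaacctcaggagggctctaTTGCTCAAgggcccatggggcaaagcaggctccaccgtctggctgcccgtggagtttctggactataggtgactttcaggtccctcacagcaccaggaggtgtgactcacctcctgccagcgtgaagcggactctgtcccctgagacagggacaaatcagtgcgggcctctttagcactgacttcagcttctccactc

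Among the secreted products, Adipoq ran from 38.8 to 146 TPM in controls (median 88.3), 71.3 to 183 with propionate (129.9), 59.2 to 263 with butyrate (147) and 75.6 to 604 in 5 combination libraries (223, or 244 with replicate 5 at 1529). In all, 4 combination libraries lay above every control, and combination replicates 3 and 4 lay inside the control range, so the groups overlapped. Replicates 3 and 4 were also the combination libraries highest in the mesothelial gene Wt1, at 216 and 203 TPM, and the part of this difference was not tested. Leptin, the satiety hormone encoded by Lep, was scarce outside 2 libraries. Lep ran from 0.41 to 4.68 TPM in controls (median 2.24), 1.5 to 5.47 with propionate (2.56), 0.73 to 8.51 with butyrate (3.29) and 0.83 to 58.7 in 5 combination libraries (4.79, or 7.11 with replicate 5 at 70.1). Replicates 2 and 5 of the combination, at 58.7 and 70.1 TPM, stood above all other libraries, which reached at most 9.43 TPM.

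Resistin, encoded by Retn, is a hormone of mouse fat cells. Retn ran from 53.5 to 152 TPM in controls (median 108), 85.9 to 209 with propionate (128), 62.4 to 249 with butyrate (158) and 84.3 to 734 in 5 combination libraries (225, or 255 with replicate 5 at 1772). In all, 4 combination libraries lay above the highest control for Retn and 2 overlapped. Adipsin, the complement factor encoded by Cfd, was the most abundant of the 4 by median TPM in every group. Levels of Cfd ran from 314 to 839 TPM in controls (median 553), 337 to 928 with propionate (778), 325 to 1463 with butyrate (773) and 397 to 1614 in 5 combination libraries (889.7, or 1106 with replicate 5 at 7099). For Cfd too, 4 combination libraries stood above the highest control and the others overlapped with it.

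Among the regulators, Pparg, which encodes PPARγ itself, ran from 3.74 to 11 TPM in controls (median 8), 5.73 to 13.7 with propionate (8.64), 5.34 to 17.7 with butyrate (9.2) and 7.07 to 39.7 in 5 combination libraries (14.6, or 15.4 with replicate 5 at 105). Cebpa, which encodes C/EBPα, ran from 18.1 to 25.6 TPM in controls (median 19.4), 13.4 to 32.7 with propionate (20.7), 15.9 to 32.2 with butyrate (19.4) and 24.7 to 80.9 in 5 combination libraries (26.6, or 26.7 with replicate 5 at 219.7). In the 4 combination libraries other than replicates 2 and 5, Cebpa stayed between 24.7 and 26.8 TPM, close to the highest control at 25.6. Thrsp, a nuclear protein that promotes fatty acid synthesis, ran from 36.1 to 153 TPM in controls (median 81.7), 34.6 to 177 with propionate (109), 21.2 to 161 with butyrate (131) and 53.6 to 393 in 5 combination libraries (148, or 156 with replicate 5 at 2282). The gap of replicate 5 to the next library was wide for Thrsp, at 2282 against 393 TPM.

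Nnat, a small membrane protein of the endoplasmic reticulum, ran from 0.83 to 11.9 TPM in controls (median 1.62), 1.36 to 10.1 with propionate (3.28), 0.72 to 10.1 with butyrate (3.77) and 0.89 to 15.7 in 5 combination libraries (5.89, or 9.11 with replicate 5 at 63). Its control range was broad, and 3 combination libraries exceeded it. Adig, a small membrane protein of fat cells, ranged over 8.37 to 94.8 TPM in 23 libraries and stood at 267 TPM in combination replicate 5.

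Of the genes of uptake and transport, Fabp4, the fatty acid carrier of the fat-cell cytoplasm, ran from 225 to 762 TPM in controls (median 528), 419 to 989 with propionate (593), 345 to 1373 with butyrate (683) and 461 to 3728 in 5 combination libraries (1187, or 1229 with replicate 5 at 7135). Lpl, the lipase that frees fatty acids from circulating lipoproteins, ran from 209 to 339 TPM in controls (median 299), 249.8 to 392 with propionate (301), 242 to 347 with butyrate (298) and 323 to 809 in 5 combination libraries (326, or 337 with replicate 5 at 1081). For Lpl, combination replicates 2 and 5 stood at 809 and 1081 TPM and the other 22 libraries at 209 to 392.

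Cd36, a fatty acid receptor at the cell surface, ran from 83.8 to 246 TPM in controls (median 114), 149.8 to 210.4 with propionate (178), 108 to 298 with butyrate (177) and 141 to 492 in 5 combination libraries (261, or 277 with replicate 5 at 757). In all, 4 combination libraries lay above every control and 2 overlapped with the control group. Aqp7, a channel that lets glycerol out of fat cells, ranged over 4.17 to 26.3 TPM in 23 libraries and stood at 46.4 TPM in combination replicate 5. Slc2a4 ran from 42.1 to 252 TPM in controls (median 107), 59.6 to 242 with propionate (147), 88.7 to 162 with butyrate (137) and 74.9 to 159 in 5 combination libraries (144, or 136 with replicate 5 at 128). Its highest level was in control replicate 3 and no treated library exceeded the control range.

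Of the glyceride synthesis genes, Dgat2, which catalyses the last step of triglyceride synthesis, ran from 17.4 to 63.9 TPM in controls (median 34.2), 30.7 to 64.5 with propionate (50.6), 21 to 83.5 with butyrate (57.2) and 21.5 to 229.6 in 5 combination libraries (65.3, or 72.3 with replicate 5 at 738). Pck1, the phosphoenolpyruvate carboxykinase that supplies glycerol backbones in fat cells, ran from 1.74 to 13.1 TPM in controls (median 6.87), 7.4 to 30.6 with propionate (13.4), 6.7 to 49.8 with butyrate (12.7) and 6.02 to 48.6 in 5 combination libraries (23.4, or 31.2 with replicate 5 at 238). For Pck1, 3 propionate, 3 butyrate and 4 combination libraries lay above the highest control. Gpd1, which makes glycerol 3-phosphate, ranged over 73.4 to 313 TPM in 23 libraries and stood at 472 TPM in combination replicate 5. Agpat2, which adds the next fatty acid to that backbone, and Pnpla3, a droplet protein of the patatin family, reached 519 and 169 TPM in combination replicate 5 and at most 158 and 49.9 TPM elsewhere.

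Of the droplet proteins, Plin1 ran from 11.2 to 41.5 TPM in controls (median 23.6), 17.1 to 47.8 with propionate (33.4), 14.2 to 60.4 with butyrate (35.4) and 20.9 to 181 in 5 combination libraries (51.9, or 55.6 with replicate 5 at 449). Plin4, another perilipin, ran from 16.8 to 58 TPM in controls (median 19.3), 16.8 to 50.5 with propionate (35), 19.4 to 45.3 with butyrate (36.3) and 16.7 to 72.8 in 5 combination libraries (33.3, or 39.7 with replicate 5 at 96.7). Control replicate 3, at 58.0 TPM, lay apart from the other controls for Plin4, which were at 16.8 to 22.8 TPM. Cidec, which fuses droplets into larger ones, ran from 25.6 to 78.7 TPM in controls (median 43.8), 33.1 to 74.7 with propionate (63.4), 27 to 129.5 with butyrate (53.4) and 32.8 to 261 in 5 combination libraries (69.3, or 89.3 with replicate 5 at 614). Cidea, a relative of Cidec that is abundant in brown fat, ran from 0.47 to 1.15 TPM in controls (median 0.585), 0.49 to 1.18 with propionate (0.895), 0.36 to 1.27 with butyrate (0.77) and 0.51 to 1.98 in 5 combination libraries (0.95, or 1.09 with replicate 5 at 31.6). Combination replicate 5 was the only library with more than 1.98 TPM of Cidea. Ucp1 was listed at up to 0.26 TPM in controls and 0.09 TPM with either acid, with a median of 0 in each of these groups, and at 0.76 TPM in combination replicate 5.

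Of the lipases, Pnpla2, the lipase that takes the first fatty acid from triglyceride, ran from 59.2 to 109 TPM in controls (median 68.5), 62 to 134 with propionate (76.8), 53.9 to 113 with butyrate (74.7) and 54 to 237 in 5 combination libraries (86.7, or 100.2 with replicate 5 at 590.5). Lipe, the hormone-sensitive lipase, ran from 19.99 to 29.6 TPM in controls (median 24), 23.9 to 36 with propionate (27.3), 17.5 to 40.5 with butyrate (28.2) and 24.8 to 96.8 in 5 combination libraries (35.8, or 39.3 with replicate 5 at 313). Mgll, which takes the last fatty acid, ran from 15.3 to 37.2 TPM in controls (median 21.1), 22.9 to 34.8 with propionate (29.1), 18.5 to 47.7 with butyrate (28.4) and 21.9 to 102 in 5 combination libraries (44.8, or 46.1 with replicate 5 at 192). For each of these lipases combination replicate 5 was highest and replicate 2 next, and combination replicates 3 and 4 lay within the control range, except that Pnpla2 in replicate 3, at 54.0 TPM, lay below the lowest control.

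Of the receptors, Adrb3, the adrenergic receptor that triggers lipolysis, ran from 2.78 to 9.03 TPM in controls (median 4.12), 3.13 to 13.9 with propionate (7.14), 3.58 to 11.4 with butyrate (9.37) and 3.51 to 34.2 in 5 combination libraries (9.46, or 11.7 with replicate 5 at 106). Acvr1c, an activin receptor of fat cells, ran from 0.26 to 1.26 TPM in controls (median 0.63), 0.5 to 1.43 with propionate (0.99), 0.54 to 2.19 with butyrate (1.38) and 0.69 to 3.78 in 5 combination libraries (1.28, or 1.75 with replicate 5 at 11.6). In all, 4 combination libraries lay above all controls for both receptors. Npr3 reached 23.0 and 20.1 TPM in combination replicates 5 and 2 and ranged over 1.75 to 6.10 TPM elsewhere. Mrap, an accessory protein of melanocortin receptors, ranged over 3.25 to 19.5 TPM outside those libraries and stood at 140.0 and 63.8 TPM in them. Pde3b, the phosphodiesterase through which insulin restrains lipolysis, reached 45.0 TPM in combination replicate 5 and ranged over 2.25 to 10.9 TPM in 23 libraries.

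Among the remaining genes, Sncg, which encodes a synuclein found in fat cells, ranged over 7.46 to 44.5 TPM in 22 libraries and stood at 213 and 361 TPM in combination replicates 2 and 5. Car3 ran from 1544 to 5876 TPM in controls (median 3592), 1903 to 6166 with propionate (6001), 3062 to 6836 with butyrate (5485) and 2854 to 7883 in 5 combination libraries (5906, or 5057 with replicate 5 at 4209). For Car3 the combination library with the fewest muscle transcripts, replicate 5, lay inside the range of the other 5, whose highest was replicate 2.

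**Figure D4:**
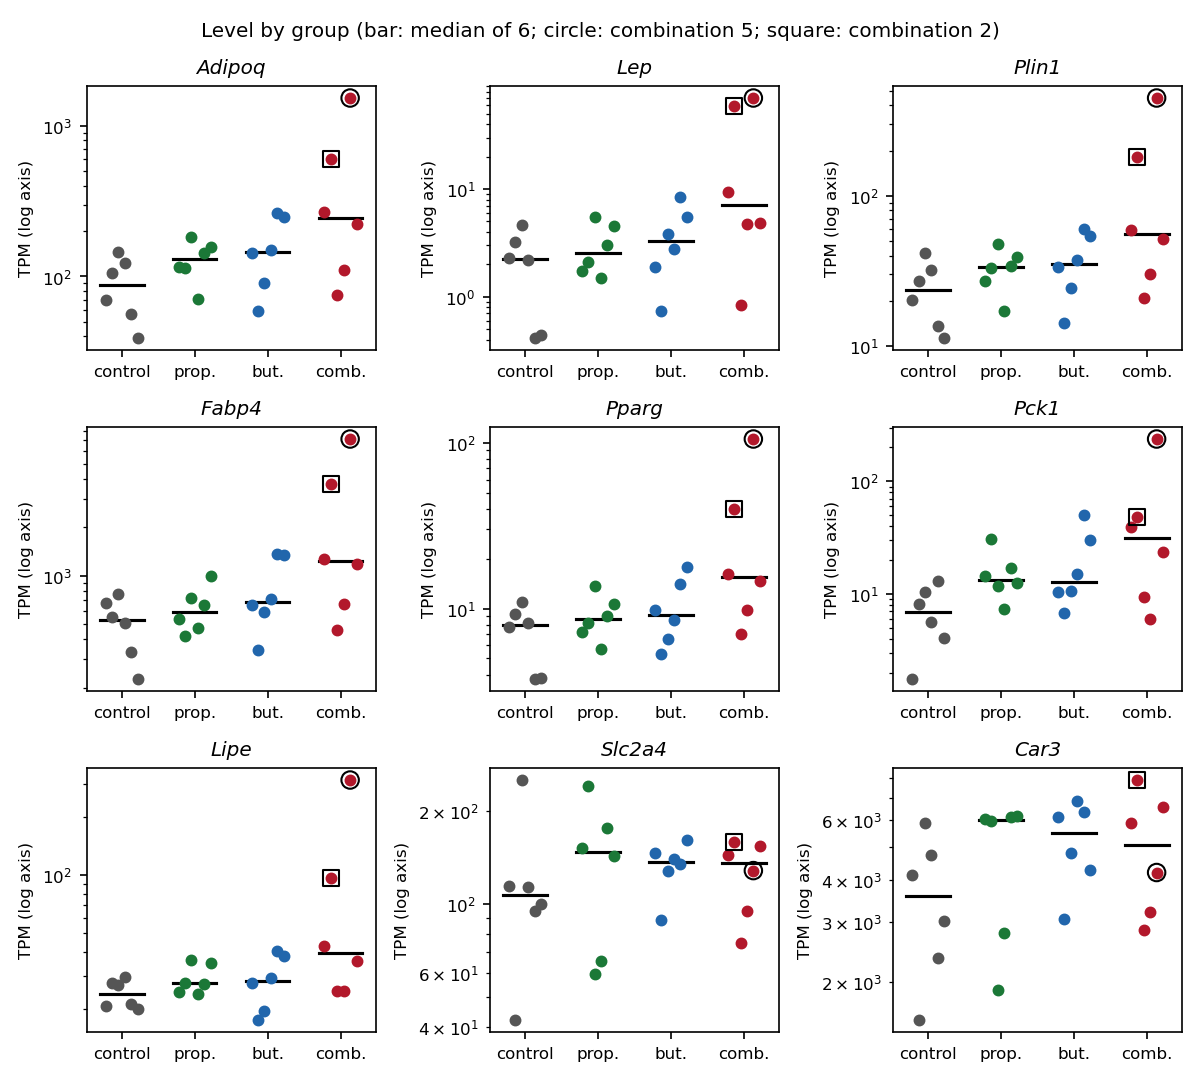
TPM of 9 genes by group on log axes, 1 point per library, with a bar at the median of 6, a circle around combination replicate 5 and a square around combination replicate 2. Combination replicate 5 is highest for 7 of the 9 genes, while Slc2a4 and Car3 show replicate 5 inside the range of the other libraries.

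With the combination, the 33 tested genes were higher than in controls as a group, but none passed the test. On log2(TPM + 1) all 33 had a mean above control, with a median log2 fold change of 1.21 against -0.12 over all genes tested, of which 34.1% were above 0. By limma with Benjamini-Hochberg adjustment over 15163 genes, 0 of 33 members had an adjusted p under 0.05 (0% of all genes), and the smallest adjusted p was 0.240. The members varied together across the 24 libraries (median r of 0.92 with Adipoq), so a count of members is not a count of independent results. At an unadjusted p under 0.05, 28 members were higher, against 6.2% of all genes. The exceptions were Nnat, Slc2a4, Gpd1, Plin4 and Car3, of which the last 4 had r over 0.7 with Ckm.

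Much of the size rested on 2 libraries. Without combination replicate 5 all 33 genes remained above control (30.2% of all genes), the median was 0.83, and 18 members had an unadjusted p under 0.05 (4.23% of all genes). Without replicates 2 and 5, a fit chosen after the data were seen, the median was 0.45, all 33 were above 0 (28.4% of all genes), and 3 had an unadjusted p under 0.05 (2.7%). Weights estimated per library were 0.126 for combination replicate 5 and 2.53 for combination replicate 2, the highest of its group. Combination replicates 3 and 4 had weights of 0.47 and 0.60. With these weights 32 of 33 members had an adjusted p under 0.05 and all 32 were higher (6.71% of all genes higher, 38.2% in either direction). The exception was Slc2a4, at 0.45 (adjusted p = 0.110 by limma with these weights). The part of tissue composition in these differences was not tested.

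The 4 members of smallest p in the combination were Cd36, Sncg, Fabp4 and Pck1, none of which passed. Cd36 was above control by a log2 fold change of 1.16 ± 0.33 (SE, adjusted p = 0.24 by limma), and by 0.89 ± 0.30 without combination replicate 5 (adjusted p = 0.44). Sncg was above control by 2.00 ± 0.59 (adjusted p = 0.259) and by 1.44 ± 0.49 without that library (adjusted p = 0.451). For Fabp4 the values were 1.69 ± 0.51 (adjusted p = 0.265) and 1.25 ± 0.45 (adjusted p = 0.468). Pck1 was above control by 2.10 ± 0.64 (adjusted p = 0.267) and by 1.51 ± 0.54 without it (adjusted p = 0.468). Higher values were seen in 32 of 36 pairs of a combination and a control library for Cd36 and Sncg, 30 for Fabp4 and 31 for Pck1, and without replicate 5 in 26, 26, 24 and 25 of 30.

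By role, the median log2 fold change with the combination was 1.75 for the 4 secreted products, 1.31 for the 5 regulators, 1.16 for the 5 uptake genes and 1.52 for the 5 glyceride genes. It was 1.16 for the 4 droplet proteins, 1.18 for the 3 lipases and 1.13 for the 5 receptors and signalling genes. Without combination replicate 5 these medians were 1.25, 0.74, 0.89, 0.92, 0.65, 0.68 and 0.80 in the same order. Over all 24 libraries the differences ran from 0.21 for Slc2a4 to 2.10 for Pck1, and without replicate 5 from 0.20 for Slc2a4 to 1.54 for Lep.

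**Figure D5:**
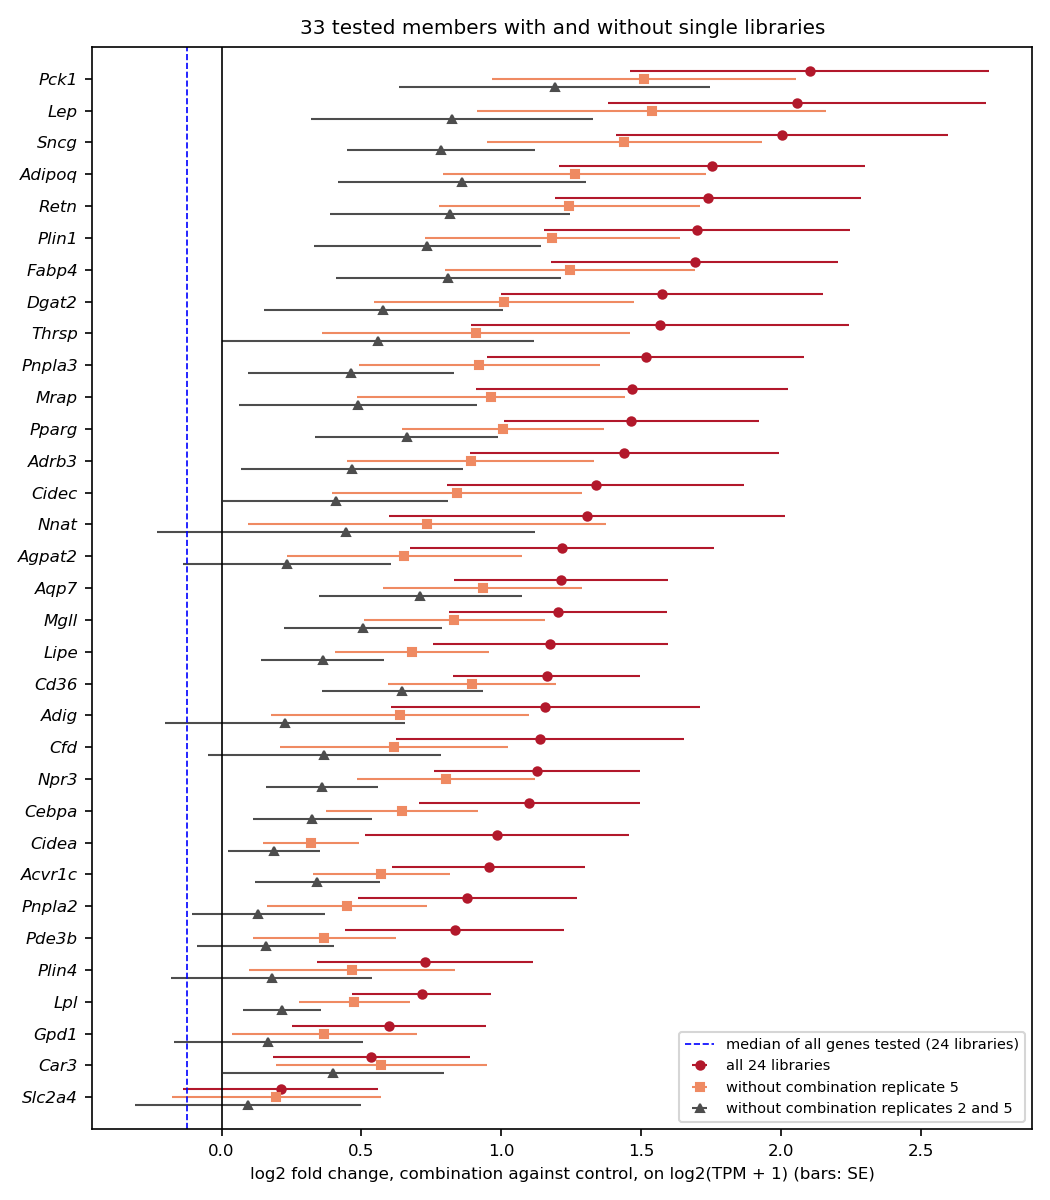
Log2 fold change of the 33 tested genes, combination against control on log2(TPM + 1), with SE bars, in 3 fits: all 24 libraries, without combination replicate 5 and without replicates 2 and 5. The medians of the 3 fits are 1.21, 0.83 and 0.45, and the dashed line marks the median of all genes tested at -0.12.

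With propionate alone, 31 of 33 genes had a mean above control (20.7% of all genes), with a median log2 fold change of 0.36 against -0.30 over all genes. Cebpa and Pde3b were the exceptions, at -0.03 ± 0.40 and -0.11 ± 0.39 (SE). By limma 0 members had an adjusted p under 0.05 (0% of all genes), the smallest being 0.333, and 0 had an unadjusted p under 0.05 (0.435% of all genes were higher at that level). The 4 members of smallest p were Aqp7 at 0.65 ± 0.38 (adjusted p = 0.333), Pck1 at 1.09 ± 0.64 (adjusted p = 0.333), Cd36 at 0.41 ± 0.33 (adjusted p = 0.426) and Car3 at 0.42 ± 0.35 (adjusted p = 0.438). Propionate libraries exceeded controls in 30 of 36 pairs for Aqp7, 31 for Pck1, and 27 each for Cd36 and Car3. With weights per library 9 of 33 members had an adjusted p under 0.05, all higher (9.44% of all genes higher, 75.4% in either direction). These were Adipoq, Cd36, Slc2a4, Aqp7, Gpd1, Pck1, Plin4, Adrb3 and Car3, which include the 5 members that passed the correlation with Ckm by r. The weights were 0.26 for control replicate 3 and 0.127 and 0.181 for propionate replicates 3 and 4. These libraries stood apart from the rest of their group in mesothelial markers, and the part of that in the weighted results was not tested.

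With butyrate alone, 31 of 33 genes again had a mean above control (21.2% of all genes), with a median of 0.44 against -0.38 over all genes. Agpat2 and Pde3b were below, at -0.03 ± 0.54 and -0.09 ± 0.39 (SE). By limma 0 members had an adjusted p under 0.05 (0% of all genes), the smallest being 0.151, and 0 had an unadjusted p under 0.05 (1.19% of all genes were higher at that level). Pck1 came nearest at 1.26 ± 0.64 (adjusted p = 0.151), followed by Car3 at 0.62 ± 0.35 (adjusted p = 0.189), Cd36 at 0.50 ± 0.33 (adjusted p = 0.263) and Adipoq at 0.77 ± 0.55 (adjusted p = 0.285). Butyrate libraries exceeded controls in 31 of 36 pairs for Pck1, 30 for Car3, 26 for Cd36 and 28 for Adipoq. Without control replicate 3, 5654 of all genes but 0 members had an adjusted p under 0.05. Control replicate 3 was the control lowest in mesothelial markers, at 17.6 TPM, and the part of that in this count was not tested. With the number in the library name as a replicate block 1 member passed, Car3 at 0.71 (adjusted p = 0.0448 by limma), beside 7903 of all genes. With weights per library 12 of 33 members had an adjusted p under 0.05, all higher (6.32% of all genes higher, 67.6% in either direction). These were Adipoq, Fabp4, Cd36, Slc2a4, Aqp7, Gpd1, Pck1, Plin1, Plin4, Mgll, Acvr1c and Car3.

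The medians of all genes lay below 0 in both single-acid groups on deposited TPM. With median-of-ratios scaling they were close to 0, and the median over the 33 genes was 0.69 with propionate, 0.83 with butyrate and 1.30 with the combination. With quantile normalization the medians of the 33 genes were 0.58, 0.80 and 1.41. Cebpa, Pde3b and Agpat2 then had means above control in both single-acid groups, so their sign depends on the scaling, and under both scalings 0 members had an adjusted p under 0.05. The 3 comparisons share the same 6 control libraries, so their values are not independent.

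The combination was also set against each acid. Against propionate the median over the 33 genes was 0.96 (0.19 over all genes), 32 were above 0 (76.9% of all genes) and 17 had an unadjusted p under 0.05 (8.43% of all genes higher). Under median-of-ratios scaling 3 members did (5.69% of all genes higher), and 2 after quantile normalization (5.08%). Against butyrate the median was 0.91 (0.30 over all genes), 31 were above 0 (81.6%) and 12 had an unadjusted p under 0.05 (14.6% higher). Under those scalings 0 members did (6.21 and 6.03% of all genes higher). By limma 0 members had an adjusted p under 0.05 in either comparison (0% of all genes), the smallest being 0.509 and 0.317. Without combination replicate 5 the medians were 0.47 and 0.42 and 2 members had an unadjusted p under 0.05 in each (3.86 and 5.99% of all genes higher). Without replicates 2 and 5 the medians were 0.12 and 0.12, against 0.13 and 0.23 over all genes. Slc2a4 was below 0 in both comparisons, at -0.03 against propionate and -0.11 against butyrate, and Car3 was below 0 against butyrate.

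Propionate and butyrate differ by 1 carbon in chain length, and their doses and times are not stated. Between them the median over the 33 genes was 0.08 (butyrate minus propionate, -0.09 over all genes), with 22 genes above 0 (29.7% of all genes). By limma 0 members had an adjusted p under 0.05 (0% of all genes) and 0 had an unadjusted p under 0.05 (0.706% of all genes), with differences of -0.15 (Thrsp) to 0.31, which does not show that the acids act alike.

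Whether the combination exceeded the sum of its acids was asked by the interaction, in which the step from control to butyrate is subtracted from the step from propionate to the combination. Its median over the 33 genes was 0.57, below the 0.62 of all genes, with 28 genes above 0 (83.7% of all genes). The count was 21 without combination replicate 5 (82.6% of all genes), 6 without replicates 2 and 5 (80.8%), 15 under median-of-ratios scaling (53.2%) and 19 after quantile normalization (49%). By limma 0 members had an adjusted p under 0.05 (0% of all genes), and 0 had an unadjusted p under 0.05, while 34.8% of all genes were higher at that level. The median was 0.10 without combination replicate 5 and -0.26 without replicates 2 and 5, and -0.05 with median-of-ratios scaling.

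To set each gene against a fat-cell gene, its TPM + 1 was divided by that of Adipoq within its library. This takes out the share of fat tissue only for transcripts made by fat cells alone. Gpd1, Car3, Slc2a4 and Plin4 also followed Ckm. A ratio also falls where Adipoq rises and the gene does not, so a lower ratio is not a change corrected for tissue composition. The log2 ratio to Adipoq was lower with the combination for 29 of 32 genes, against 99.8% of all genes, with a median difference of -0.55. By the exact permutation test 10 members had an unadjusted p under 0.05, all lower, against 77% of all genes, or 5 without combination replicate 5, and 0 passed after adjustment over 96 tests. Cfd was the only member whose groups did not overlap (0.0989% of all genes): its log2 ratio to Adipoq was 2.06 ± 0.35 (SD, n = 6) with the combination and 2.68 ± 0.21 in controls (exact permutation p = 0.00216, the smallest possible, adjusted p = 0.208). The combination ratio of Cfd was lower than control in all 36 pairs, and the difference of -0.61 became -0.65 without combination replicate 5. With Plin1 as the denominator the difference for Cfd was -0.56 (exact permutation p = 0.0108, adjusted p = 0.260) and the groups overlapped.

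Plin1 and Retn had the ratios to Adipoq that differed least from control, -0.05 and -0.01 with the combination, or -0.08 and -0.02 without replicate 5. The 3 genes with a higher ratio in the combination were Lep (0.30), Pck1 (0.35) and Sncg (0.25), with exact permutation p values of 0.407, 0.444 and 0.424 and adjusted values of 0.574, 0.584 and 0.582. Without combination replicate 5 these differences were 0.28, 0.25 and 0.18. With propionate 30 of 32 ratios were lower (99.1% of all genes) and 1 had an unadjusted p under 0.05 (11.1% of all genes lower). With butyrate 31 were lower (99.4%) and 7 had an unadjusted p under 0.05 (29%).

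Other genes of fat-cell biology were read from further lists, each by its counts and its median. Of 21 tested adipocyte markers outside the 34, 19 were above control with the combination, with a median of 0.81 (0.44 without combination replicate 5) against -0.12 over all genes, of which 34.1% were above 0. By limma 0 had an adjusted p under 0.05, and 13 were higher at an unadjusted p under 0.05, or 8 without that library (6.2 and 4.23% of all genes). The smallest p belonged to Itih5 (log2 fold change 0.81), Vegfa (-0.89), Aoc3 (1.29) and Ces1f (1.75), with adjusted p of 0.212, 0.260, 0.294 and 0.294.

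Of 15 genes of fatty acid synthesis 10 were above control (34.1% of all genes) with the combination, with a median of 0.53, or 0.07 without combination replicate 5. Scd1, a desaturase, was at 1.61 and Fasn, the fatty acid synthase, at 1.28 (adjusted p = 0.386 and 0.501 by limma), or 1.03 and 0.66 without that library. Of 23 other regulators of fat-cell formation 15 were above control (median 0.19), led by Ebf1 at 1.03 (adjusted p = 0.227 by limma), or 12 (median 0.04) with Ebf1 at 0.74 without that library. Other droplet proteins were above control in 10 of 16 (median 0.29), or 11 (median 0.24) without it. Other glyceride enzymes were above control in 7 of 17 (median -0.03), or 5 (median -0.13) without it, a share near that of all genes. Brown and beige fat markers were above control in 2 of 7 tested (median -0.28), or in 5 of 7 (median 0.20) without combination replicate 5. None of these lists held a gene with an adjusted p under 0.05.

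The 10 genes outside the list whose level followed Adipoq most closely over the 24 libraries were Cdo1, Ces1d, Ankef1, Trarg1, Lgals12, Smoc1, B3galt2, Chpt1, Gstz1 and Ces1f, with r of 0.96 to 0.98. Over the 22 libraries without combination replicates 2 and 5 their r was 0.91 to 0.96. All 10 were highest in combination replicate 5, where Cdo1, cysteine dioxygenase, reached 1022 TPM against a median of 78.6 TPM over the 24 libraries.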

How the data were processed

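RNA extracted with TRIzol was made into stranded libraries after polyA selection, per the labels' protocols. The submitters' processing notes name fastp, HISAT2, StringTie and the mm39 build, and tool versions were not given in the sources used here. A single table of TPM per transcript, 149132 rows in 24 libraries, was deposited by the authors. TPM keeps no read counts, so depth is unknown. The 1001 rows with no gene name (0.174 to 0.470% of TPM) were left out of the tests, and the others were summed by gene name.

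Values were tested as log2(TPM + 1) with limma 3.58.1 in R 4.3.3 (group means, intensity trend, robust empirical Bayes, two-sided, Benjamini-Hochberg over 15163 genes at 1 TPM or more in at least 6 libraries). Ratios to Adipoq were tested by two-sided exact permutation of 924 arrangements, whose smallest p is 0.00216, and correlations by permutation with 100000 resamples (scipy 1.17.1). The limma step was tested on simulated data in which each gene varied independently, so that test does not cover variation shared by genes across libraries. Full statistics are given for members that passed, or else for the 4 of smallest p in each comparison with control. The nearest genes are the 10 of highest r with Adipoq. Promoter windows come from RefSeq (GRCm38.p6) and their coordinates were not compared with mm39.

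The members and lists were chosen with earlier results of these data known. Alternatives were another pseudocount, other filters, 2 scalings, weights per library, replicate blocks, leaving out each library, and, chosen after seeing the data, leaving out combination replicates 2 and 5 together.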

Additional observations from a re-analysis of the deposited data

Results flagged for a closer look

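In a check of each gene in each group of 6 libraries, 132 groups in all, 3 had a highest or lowest library whose gap to the next was wide against the range of the group. Chance gives about 1 in 20 such groups. Plin4 stood at 58.0 TPM in control replicate 3, and Pnpla2 at 109.3 TPM in the same library. Cidea stood at 31.6 TPM in combination replicate 5.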

How the results depend on the processing

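TPM holds no counts, so counting error could not be separated from other spread, and low genes such as Ucp1 could not be tested. Over all alternatives, 714 values recomputed for counts and medians stayed within the spread between libraries or within 1.5 times, and 27 moved. The causes of these moves were not tested. A count of 0 that stayed at 0 was among those that stayed. A median moved only if it shifted by 0.747 or more, the pooled within-group SD of the library median. That exceeds the medians with propionate (0.36), with butyrate (0.44) and for the interaction (0.57), so the tally cannot show that these held. The interaction median of -0.05 with median-of-ratios scaling was among those that stayed. With weights per library the number of members with an adjusted p under 0.05 by limma was 9 with propionate, 12 with butyrate, 32 with the combination, 20 for combination against propionate, 3 for combination against butyrate and 4 for the interaction, from 0 in each, and all genes passing numbered 11434, 10256, 5786, 5026, 572 and 10982. Median-of-ratios scaling gave 35 genes and quantile normalization 41 for the combination, with 0 members in either. Leaving out 1 library at a time gave 0 to 5654 genes with butyrate (the most without control replicate 3), 0 to 2 with the combination (the most without combination replicate 6), 0 to 1 for combination against butyrate (without butyrate replicate 6 or combination replicate 6), 0 to 5619 for the interaction (without propionate replicate 3) and 0 members in each. The median over members then ranged over 0.23 to 0.51 with propionate, 0.32 to 0.58 with butyrate and 0.83 to 1.56 with the combination. Leaving out combination replicates 2 and 5 together, chosen after seeing the data, gave medians of 0.445 against control, 0.121 against propionate, 0.118 against butyrate and -0.257 for the interaction.

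Replicate numbers from the sample titles did not pair the libraries. The mean correlation of same-numbered deviations was 0.00056 (16 of 36 over 0.1), against -0.0028 for other pairs. By the numbers in the library names, same-numbered libraries were more alike, at a mean of 0.23 (18 of 27 over 0.1, lowest -0.39). Other pairs by that numbering had a mean of -0.035. The labels state no block, and what the library numbers stand for was not tested. With the title numbers as a replicate block 0 members and 0 genes passed in each comparison. With the library numbers as a replicate block 1 member passed with butyrate, Car3 at a log2 fold change of 0.71 (adjusted p = 0.0448 by limma), 7903 genes passed with butyrate, 5 for combination against butyrate and 5426 for the interaction.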

Other observations

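Further lists were read by their counts in the combination against control, where 34.1% of all genes were above 0 and 6.2% were higher at an unadjusted p under 0.05, or 30.2 and 4.23% without combination replicate 5. Of 10 markers of fat progenitors 7 were above control (median log2 fold change 0.17, or 0.10 without combination replicate 5), and 0 passed by limma, with 3 higher at an unadjusted p under 0.05. Of 10 genes of fatty acid uptake and lipoprotein lipase control 6 were above control (median 0.10), or 5 (median 0.01) without that library, with 2 higher at an unadjusted p under 0.05 and 0 passing. Of 19 hormone receptors and signalling genes of fat cells 15 were above control (median 0.20, or 0.09 without combination replicate 5), with 4 higher at an unadjusted p under 0.05 and 0 passing. Of 10 endothelial markers 8 were above control (median 0.45, or 0.32 without combination replicate 5), with 6 higher at an unadjusted p under 0.05, or 3 without that library, and 0 passing.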
